A study of Homo sapiens with 14 samples.

Results

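The levels of 10 genes of the BCL2 family and of cell survival were followed in MDA-MB-231 cells treated with RBI2 or CX-5461. The genes were MCL1, BCL2L1, BCL2, BCL2L11, BBC3, PMAIP1, BID, BAX, BAK1 and BIRC5, chosen by name, 10 of the 60876 genes of the annotation, and all 10 passed the filter on low counts that left 15426 genes. MDA-MB-231 is an established human cell line from a triple-negative breast cancer. The 14 poly(A) RNA libraries fell into 7 groups of 2: the control, and cells given 5 µM RBI2 or 5 µM CX-5461 with the labelled times 10, 30 and 120 min. CX-5461 is an inhibitor of RNA polymerase I and RBI2 is a small molecule inhibitor of ribosome biogenesis. The comparisons ask whether either compound altered the mRNA of survival genes at each time, and whether the compounds differed at the same dose and time.

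Several features of the libraries bear on every value below. Both control libraries, called untreated in the labels and DMSO-treated elsewhere in the study, entered all 6 comparisons with the control, so those comparisons are not independent. The time tag in the name of the deposited table differed from the labelled time in 12 of the 12 treated libraries: tables tagged 02, 10 and 30 belong to libraries labelled 10, 30 and 120 min. Times are therefore given as labelled. Library totals were 14112299 to 24849354 estimated reads. Control replicate 2 stood apart, with 20.6% of its reads on mitochondrial genes against 8.14% to 11.3% in the other 13 libraries, and it was the lowest of the 14 libraries for 6 of the 10 genes and the highest for 2. Nothing in the labels says whether the 2 replicates of a group were separate cultures, so p-values measure the spread between these libraries, which may be technical. The values are shares of a library, and fewer cells and less RNA per cell cannot be told apart in them. Of the genes expected to be high in the line, VIM, CD44, EGFR and AXL averaged 3085, 1002, 169 and 1309 counts per 1000000 (CPM). Of those expected to be low or absent, ESR1, PGR and CDH1 lay at 0.0788, 0 and 0.130 CPM, but EPCAM was detected at 10.9 CPM. Markers of blood, endothelial and liver cells (PTPRC, CD3E, PECAM1 and ALB) averaged at most 0.147 CPM.

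The BCL2 family decides whether the outer membrane of mitochondria is opened during apoptosis. MCL1, BCL2L1 (whose long form is BCL-XL) and BCL2 hold the membrane closed, BAX and BAK1 form the pores, and the BH3-only proteins BCL2L11 (BIM), BBC3 (PUMA), PMAIP1 (NOXA) and BID start the process by binding the others. BIRC5 encodes survivin, which acts in cell division and belongs to the inhibitors of apoptosis. MCL1 differs from BCL2L1 in that both its mRNA and its protein are known to be short-lived. AU-rich elements in the 3′ untranslated region (UTR), built around the pentamer ATTTA, are a known feature of many short-lived mRNAs.

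The UTR sequences of the 10 genes differed in this feature. The UTR of the canonical MCL1 transcript, MCL1-202, is 2817 bases long in GENCODE release 44 and holds 10 copies of ATTTA and 3 of the heptamer TATTTAT, counted on the sense strand with overlaps, each heptamer holding 1 of the pentamers. Of the 12559 tested protein-coding genes with such a region, 73.1% held ATTTA, 36.1% held TATTTAT and 7.16% held TATTTAT at least 3 times. PMAIP1 also held 3 heptamers, with 5 pentamers in 1552 bases. BCL2L11 held 8 pentamers and 2 heptamers in 4213 bases. BCL2 held 13 pentamers and 1 heptamer in 5279 bases. BCL2L1 held 3 pentamers and 1 heptamer in 1491 bases, and BID held 2 pentamers and no heptamer in 1442. BAX (162 bases), BAK1 (1251), BBC3 (978) and BIRC5 (2081) held neither. The region counted for BAX is that of BAX-202, while 65.2% of the BAX reads were assigned to BAX-201. The windows around the heptamers of MCL1 and PMAIP1, the genes with most of them, and of BCL2L1 for contrast, are given 5′ to 3′ on the strand of the mRNA (GRCh38), with the heptamer in capitals. The third heptamer of PMAIP1 lies within 25 bases of a printed one. A match is a description of the letters and was not tested as a site.
MCL1, chr1:150575809-150575833, minus strand: ctctacagaTATTTATatcaattcc
MCL1, chr1:150575194-150575218, minus strand: ttacctatgTATTTATcgttcttga
MCL1, chr1:150575166-150575190, minus strand: taagccgctTATTTATatcatgtat
PMAIP1, chr18:59903963-59903987, plus strand: gaataatttTATTTATtttgcctat
PMAIP1, chr18:59904211-59904235, plus strand: accatctggTATTTATggtctaatt
BCL2L1, chr20:31664684-31664708, minus strand: gcgtgtctgTATTTATgtgtgagga

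Under the main settings, MCL1 was the only gene of the 10 to pass an adjusted p of 0.05 in any comparison. Its fitted level in the cells labelled CX-5461 10 min, on TMM-scaled counts, was 0.537 of the control level, and its differences between RBI2 and the control did not pass the test. MCL1 (ENSG00000143384, chr1:150560895-150579738, minus strand) had 248 and 298 CPM in the control libraries and 146 and 147 CPM in the CX-5461 10 min libraries. The groups did not overlap, and all the other 12 libraries lay above both, at 217 to 298 CPM. In the edgeR quasi-likelihood test, adjusted by the Benjamini-Hochberg method over 15426 genes, the log2 fold change was -0.90 (SE 0.097, 95% interval -1.11 to -0.68, adjusted p = 0.000499). This passed the adjusted p of 0.05, which 2.98% of all genes did in the lower direction, but missed the limit of 1 on the absolute log2 fold change used for a call. No member was called under both limits, against 1.64% of all genes tested (253 genes), and DESeq2 with the same limits also called 0 of the 10. At an unadjusted p under 0.05, 3 of the 10 passed, MCL1, PMAIP1 and BAX, against 22.5% of all genes. In TPM, a unit per length that is not TMM-scaled, MCL1 stood at 102 and 72.2 in control replicates 1 and 2 and at 60.1 and 58.9 in CX-5461 10 min, a smaller gap, with both CX-5461 10 min libraries again below the other 12. The control library that stood apart was the highest of the 14 for MCL1 in CPM and the lowest of the other 12 in TPM. Without it, the log2 fold change was -0.76 (adjusted p = 0.000371), and without the other control library it was -1.03 (adjusted p = 3.27e-05). In a model of only the 4 libraries of this comparison, it was -0.88 with an adjusted p of 0.199.

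In the CX-5461 libraries labelled 30 min, MCL1 stood at 248 and 217 CPM, and in those labelled 120 min at 255 and 281 CPM. Against the control, neither difference passed (30 min, log2 fold change -0.23, 95% interval -0.44 to -0.016, adjusted p = 0.213; 120 min, -0.02, interval -0.24 to 0.19, adjusted p = 0.933). The call at 30 min depended on the control, with -0.36 (adjusted p = 0.007) without control replicate 1 and -0.08 (adjusted p = 0.964) without control replicate 2. Among the 3 labels of CX-5461, in a contrast between treated groups alone, MCL1 differed (largest log2 difference between labels 0.87, adjusted p = 0.00201), and no other of the 10 genes passed. Under both limits, 0 of the 10 were called, against 1.09% of all genes. With the adjusted p alone, it was 1 of 10 against 2.87%.

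RBI2 left MCL1 near the control level. Its libraries had 276 and 277 CPM at 10 min, 242 and 249 CPM at 30 min, and 233 and 227 CPM at 120 min. The log2 fold changes against the control were 0.02 (95% interval -0.19 to 0.23, adjusted p = 0.941), -0.15 (-0.36 to 0.060, adjusted p = 0.323) and -0.25 (-0.46 to -0.035, adjusted p = 0.0931). The 120 min libraries lay below both control libraries, as for 27.7% of all genes tested, but the difference did not pass. These calls depended on the control: without control replicate 1 the values were -0.29 at 30 min (adjusted p = 0.0202) and -0.39 at 120 min (adjusted p = 0.00406), and without control replicate 2 they were -0.02 (adjusted p = 0.956) and -0.11 (adjusted p = 0.402). DESeq2 without a filter also passed MCL1 at 120 min (-0.25, adjusted p = 0.0317). Among the 3 labels of RBI2, the largest log2 difference was 0.27 (adjusted p = 0.269). None of the 10 genes passed in that test, although PMAIP1 did so in 3 of 24 alternative settings of the analysis, as given with its values.

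The compounds were then compared directly at matched dose and label, in 3 pairs of groups. In the pair labelled 10 min, MCL1 was higher in RBI2 (276 and 277 CPM) than in CX-5461 (146 and 147 CPM), a log2 difference of 0.91 (SE 0.097, 95% interval 0.70 to 1.13, adjusted p = 0.000505), or a ratio of 1.89. With the adjusted p alone, 1 of the 10 genes passed, against 3.06% of all genes, and under both limits 0 of the 10 did, against 1.04%. This comparison shares the CX-5461 10 min libraries with the one against the control. In the pair labelled 30 min, MCL1 differed by 0.08 (interval -0.14 to 0.29, adjusted p = 0.956). In the pair labelled 120 min, the log2 difference was -0.22 (interval -0.43 to -0.010, adjusted p = 0.14), which passed in 2 of the 24 alternatives, without control replicate 1 (adjusted p = 0.0306) and without control replicate 2 (adjusted p = 0.0367). No gene of the 10 was called at 30 or 120 min, against 0.0130% and 1.67% of all genes. Both differences are bounded by their intervals, which do not show that the compounds act alike.

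**Figure D1:**
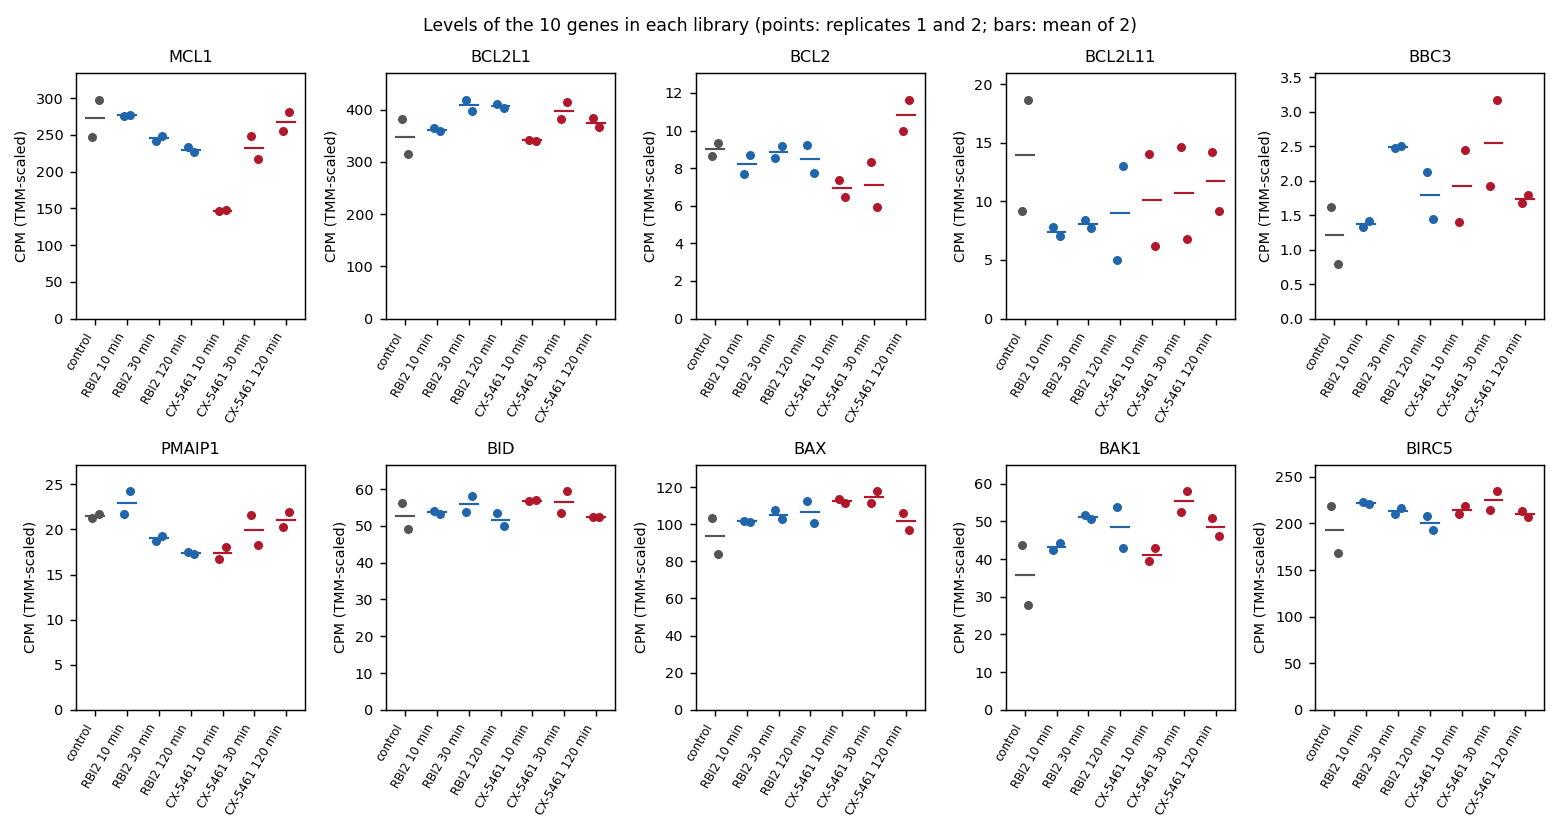
Level of each of the 10 genes in every library, in CPM with TMM scaling on linear axes that start at 0, by group (control grey, RBI2 blue, CX-5461 red). Points are the 2 replicates of a group and bars their mean. The CX-5461 10 min libraries of MCL1 sit at 146 and 147 CPM, below the other 12 libraries, and no group of the other 9 genes passed the test against the control.

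MCL1 was also set against each of the other 9 genes within the same library, a comparison that does not rest on the scaling between libraries. The ratio of MCL1 to BCL2L1 was 0.425 and 0.432 in the CX-5461 10 min libraries and 0.524 to 0.945 in the other 12. The ratio to BAX was 1.28 and 1.32 against 1.84 to 3.55. The ratio to BID was 2.57 and 2.58 against 3.65 to 6.06, and that to BIRC5 0.674 and 0.695 against 0.925 to 1.77. The ratio to PMAIP1 was 8.15 and 8.73 against 11.4 to 13.7, and that to BAK1 3.43 and 3.69 against 3.74 to 10.7. The ratio to BCL2 was 19.7 and 22.8 against 24.1 to 36.7. For these 7 genes, both CX-5461 10 min libraries lay below the other 12, narrowly so for BAK1. For the 2 genes with the widest spread between replicates they did not: the ratio to BCL2L11 was 10.4 and 23.9 against 15.9 to 46.4, and that to BBC3 104 and 60.2 against 68.3 to 373. These ratios share MCL1 and were not tested.

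**Figure D2:**
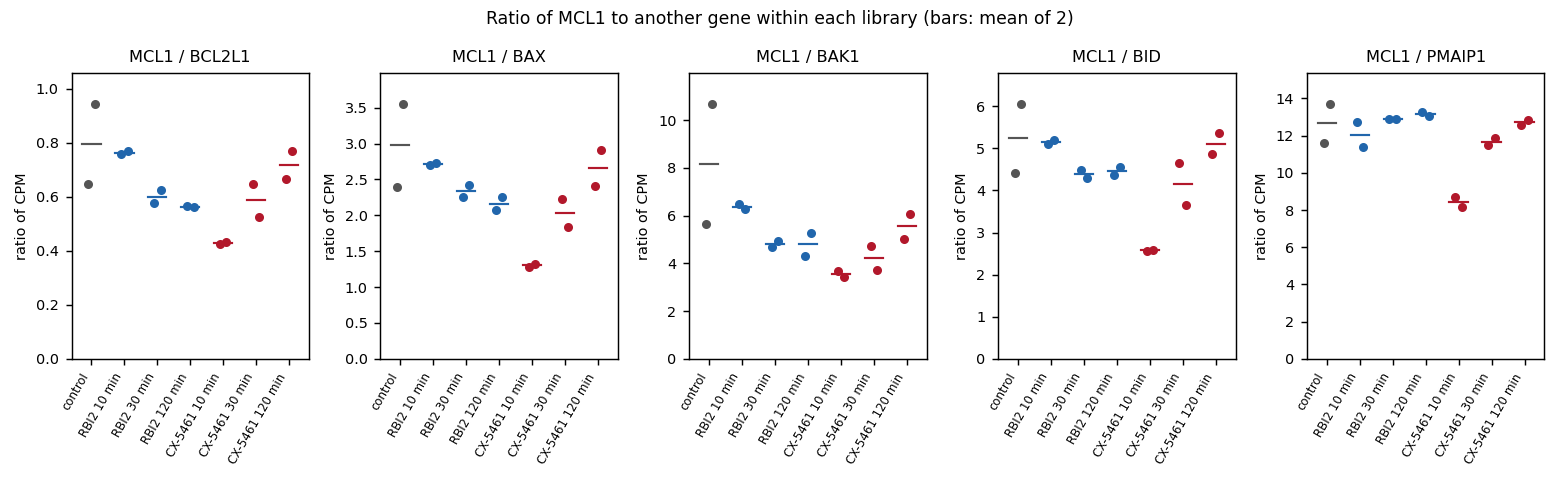
Ratio of the CPM of MCL1 to that of BCL2L1, BAX, BAK1, BID or PMAIP1 within each library, on linear axes from 0, by group. Points are the 2 replicates of a group and bars their mean. In these 5 panels, the CX-5461 10 min libraries are the lowest of the 14.

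Most MCL1 reads were assigned to MCL1-202 and MCL1-205. MCL1-202 has 3 exons and 1053 coding bases, stop codon included. MCL1-205 has 4 exons and 594 coding bases, and it splices out a part of the first coding exon of MCL1-202 while sharing the last 2 coding segments of 248 and 117 bases. Over all libraries, Salmon assigned 55.6% of the MCL1 reads to MCL1-202 and 43.7% to MCL1-205. MCL1-202 had 57.0 and 75.3 CPM in the CX-5461 10 min libraries and 101 to 188 CPM in the other 12, with no overlap. MCL1-205 had 88.5 and 71.3 CPM against 87.1 to 139 CPM, so that it overlapped the others in 1 library. Salmon divides reads that both transcripts share, and the files give no error for that split, so the shares are described without a test.

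**Figure D3:**
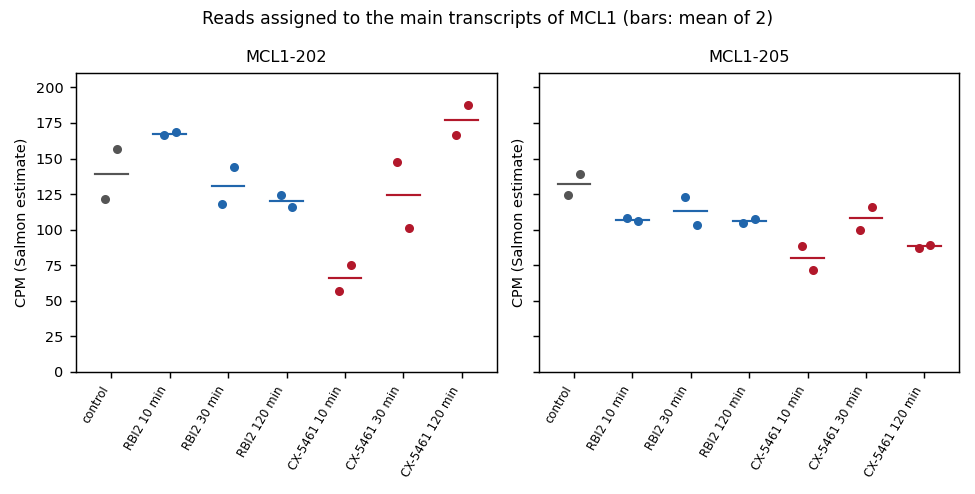
Reads that Salmon assigned to MCL1-202 and MCL1-205 in every library, in CPM on a linear axis from 0. Points are the 2 replicates of a group and bars their mean. MCL1-202 sits at 57.0 and 75.3 CPM in the CX-5461 10 min libraries and at 101 CPM or more in the others.

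The other inhibitors of the pore showed no difference that passed. BCL2L1 (ENSG00000171552, chr20:31664452-31723989, minus strand) had 381 and 315 CPM in the control. It had 343 and 341, 382 and 415, and 383 and 366 CPM in CX-5461 at 10, 30 and 120 min. In RBI2 it had 364 and 359, 419 and 398, and 411 and 403 CPM at the same labels. The log2 fold change at CX-5461 10 min was -0.03 (95% interval -0.22 to 0.16, adjusted p = 0.856), an interval that does not reach the change of MCL1. The largest differences from the control were 0.23 in RBI2 30 min (adjusted p = 0.15) and 0.22 in RBI2 120 min (adjusted p = 0.093), and neither passed. Without control replicate 1 they were 0.37 (adjusted p = 0.00218) and 0.36 (adjusted p = 0.00204), and CX-5461 30 min passed too (0.33, adjusted p = 0.00364). Without control replicate 2 the RBI2 values were 0.09 at both labels (adjusted p = 0.668 and 0.49).

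BCL2 (ENSG00000171791, chr18:63123346-63320128, minus strand) was low in these cells. Its libraries had 8.64 and 9.35 CPM in the control, and 7.38 and 6.45, 8.32 and 5.92, and 9.98 and 11.7 CPM in CX-5461 at 10, 30 and 120 min. In RBI2 it had 7.71 to 9.21 CPM over the 6 libraries. Both CX-5461 10 min libraries lay below the control and both 120 min libraries above it. The log2 fold changes were -0.38 (adjusted p = 0.228) and 0.26 (adjusted p = 0.534), and the largest difference among the labels of CX-5461 was 0.64 (adjusted p = 0.097), none of which passed. The last passed in 3 of the 24 alternatives, with no filter on low counts and without either control library (lowest adjusted p = 0.0357).

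Among the BH3-only genes, PMAIP1 (ENSG00000141682, chr18:59899996-59904305, plus strand) was closest to MCL1 in its pattern over the libraries. It had 21.3 and 21.7 CPM in the control, 16.7 and 18.1 CPM in CX-5461 10 min, 21.6 and 18.3 CPM in CX-5461 30 min, and 20.3 and 21.9 CPM in CX-5461 120 min. In RBI2 it had 21.7 and 24.3, 18.8 and 19.3, and 17.5 and 17.3 CPM at 10, 30 and 120 min. The lowest libraries were those of CX-5461 10 min and RBI2 120 min, both groups lying below both control libraries. The log2 fold changes there were -0.31 (SE 0.11, adjusted p = 0.129) and -0.30 (SE 0.11, adjusted p = 0.0679), and the direct difference at 10 min was 0.40 (SE 0.10, adjusted p = 0.0719). None of them passed. The direct difference did so in 3 of the 24 alternatives, without either control library and in a model of only the libraries compared (lowest adjusted p = 0.0383), and the same 3 passed PMAIP1 among the labels of RBI2 (lowest adjusted p = 0.0275). Across the 14 libraries, Pearson's r of log2 CPM between MCL1 and PMAIP1 was 0.735 and Spearman's rho 0.912, a description over points that share groups of 2 and their control.

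BBC3, BCL2L11 and BID showed no difference that passed. BBC3 (ENSG00000105327, chr19:47220822-47232766, minus strand), a target of p53, was the least abundant, with 10 to 53 reads in a library. It had 1.62 and 0.799 CPM in the control, 1.93 and 3.18 CPM in CX-5461 30 min, and 2.48 and 2.51 CPM in RBI2 30 min. Both 30 min groups lay above the control libraries, as for 19.8% (CX-5461) and 26.3% (RBI2) of all genes tested. Its log2 fold changes there were 1.05 (95% interval 0.18 to 1.92, adjusted p = 0.213) and 1.01 (0.15 to 1.87, adjusted p = 0.152). Without control replicate 1, which leaves the control library that stood apart as the lone control, they were 1.67 (adjusted p = 0.0203) and 1.63 (adjusted p = 0.0227). Without control replicate 2 they were 0.68 (adjusted p = 0.96) and 0.62 (adjusted p = 0.606). BCL2L11 (ENSG00000153094, chr2:111119378-111168444, plus strand) had 9.14 and 18.7 CPM in the control and 5.02 to 14.7 CPM in the treated libraries. Its replicates of 1 group differed by up to 2.60 times, the largest of the 10, and it overlaps MIR4435-2HG on the opposite strand. BID (ENSG00000015475, chr22:17734138-17774770, minus strand), which caspase 8 activates by cleavage, stayed within 49.2 to 59.5 CPM in all 14 libraries.

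The pore-forming genes and BIRC5 passed the test in no treated group, and their differences from the control rested on which control library was used. BAX (ENSG00000087088, chr19:48954815-48961798, plus strand) had 103 and 83.9 CPM in the control, 114 and 112 CPM in CX-5461 10 min, and 112 and 118 CPM in CX-5461 30 min. The log2 fold changes were 0.26 (adjusted p = 0.165) and 0.29 (adjusted p = 0.213). BAK1 (ENSG00000030110, chr6:33572547-33580293, minus strand) had 43.8 and 27.9 CPM in the control, 52.5 and 58.1 CPM in CX-5461 30 min (log2 fold change 0.62, adjusted p = 0.213), and 51.7 and 50.5 CPM in RBI2 30 min (0.51, adjusted p = 0.138). It had 50.8 and 46.2 CPM in CX-5461 120 min (0.43, adjusted p = 0.371) and 53.9 and 42.9 CPM in RBI2 120 min (0.43, adjusted p = 0.111). Over the 24 alternatives, the 120 min values ranged from 0.13 to 0.80 in CX-5461 and from 0.12 to 0.79 in RBI2. BIRC5 (ENSG00000089685, chr17:78214186-78225636, plus strand) had 219 and 168 CPM in the control and 193 to 235 CPM in the treated libraries. In BAX, BAK1 and BIRC5, the lowest of the 14 libraries was control replicate 2, the one with the high mitochondrial share. Without it, BAX was at 0.12 in CX-5461 10 min (adjusted p = 0.657) and 0.16 in CX-5461 30 min (adjusted p = 0.96), and BAK1 at 0.35 in CX-5461 30 min (adjusted p = 0.96) and 0.22 in RBI2 30 min (adjusted p = 0.565). With it as the lone control, the same values were 0.42 (adjusted p = 0.00402), 0.45 (adjusted p = 0.00279), 0.99 (adjusted p = 0.000584) and 0.87 (adjusted p = 0.00104). With no filter on low counts, BAK1 also passed in CX-5461 30 min (adjusted p = 5.13e-05), RBI2 30 min (0.00231) and RBI2 120 min (0.0135). BIRC5 in control replicate 1 lay above 9 of the 12 treated libraries.

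**Figure D4:**
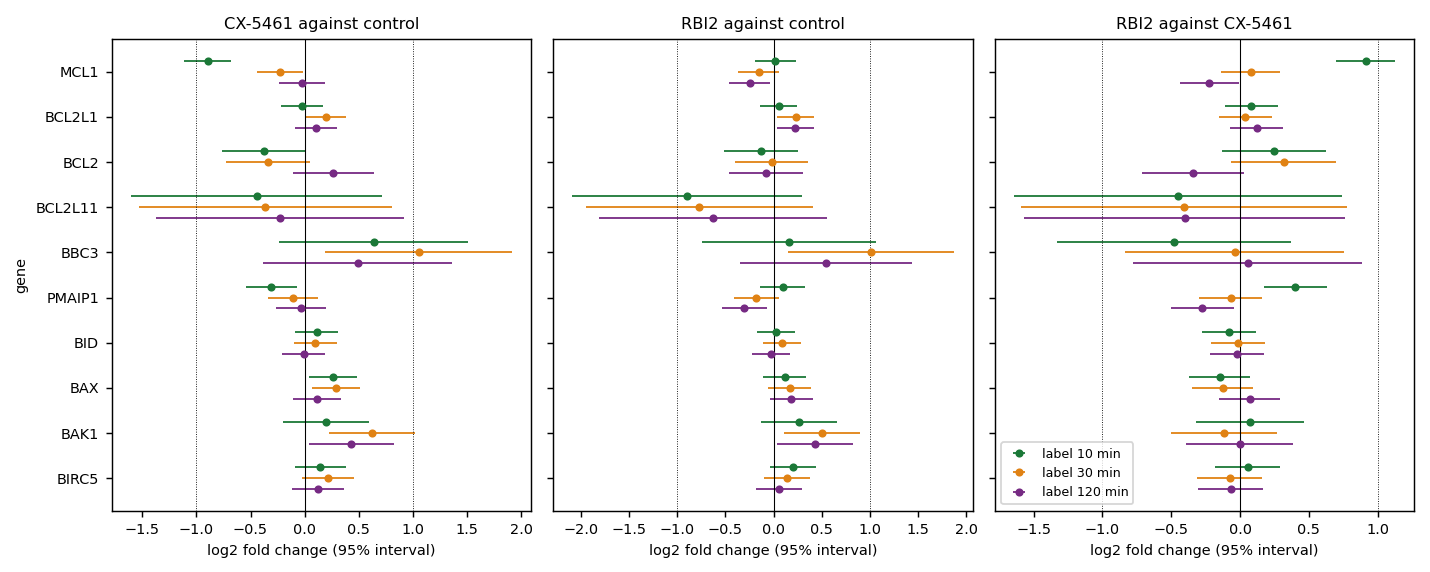
Log2 fold change of the 10 genes against the control for CX-5461 and RBI2, and of RBI2 against CX-5461, by label. Points are fitted values and bars 95% intervals, with dotted lines at the limit of 1 in either direction. MCL1 is displaced at the 10 min label of CX-5461 (-0.90) and, in the other direction, in the direct comparison (0.91).

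The changes of the 10 genes as a list were set beside those of all genes, without a test of the difference. The median log2 fold change was 0.04, 0.15 and 0.11 for CX-5461 at 10, 30 and 120 min, against -0.04, -0.05 and 0.06 over all 15426 genes. For RBI2 it was 0.07, 0.11 and 0.01, against 0.01, -0.01 and 0.01. Besides the comparisons above, 0 of the 10 genes were called in CX-5461 30 min (0% of all genes), CX-5461 120 min (0.0454%), RBI2 10 min (0.0778%), RBI2 30 min (0.0389%), RBI2 120 min (1.82%) and among the labels of RBI2 (0.363%). DESeq2 with the same limits also called 0 of 10 in each of them. At an unadjusted p under 0.05, the counts against the control were 5, 1, 0, 3 and 4 of 10 for these groups in that order, against 22.9%, 12.4%, 12.9%, 25.8% and 35.9% of all genes. These shares count both directions.

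Levels of different genes were compared per length, in transcripts per 1000000 (TPM). By the median over the 14 libraries, BCL2L1 was highest at 168 TPM, then BAX at 130.5, BIRC5 at 129, MCL1 at 99.5, BID at 51.5, PMAIP1 at 23.3, BAK1 at 20.0, BCL2L11 at 5.08, BCL2 at 2.04 and BBC3 at 1.18 TPM. BAX and BIRC5 could not be ordered, since BAX was above in 6 of the 14 libraries. PMAIP1 was above BAK1 in 10 of 14, and BIRC5 above MCL1 in 13 of 14. BCL2L1, MCL1, BID, BAK1 and BCL2L11 were each above the next gene in all 14. In the control, BCL2L1 overlapped BIRC5, BIRC5 overlapped BAX, and BAX overlapped MCL1 in the range of their 2 libraries.

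Genes of the same pathway outside the 10 were read from 5 lists. Of the inhibitors of apoptosis and their antagonists, 7 of 9 genes were tested. BIRC3, a ubiquitin ligase of NF-κB signalling, and NAIP, an inflammasome sensor, fell in CX-5461 10 min. These 2 of 7 were called lower under both limits, against 137 of all 15426 genes tested. BIRC3 had 40.3 and 64.1 CPM in the control and 25.4 and 24.2 CPM in CX-5461 10 min, below all other 12 libraries (log2 fold change -1.07, SE 0.17, adjusted p = 0.00591). It also had 29.3 and 29.2 CPM in RBI2 10 min, where the difference was -0.83 (adjusted p = 0.115), and its direct difference at 10 min was 0.24 (95% interval -0.14 to 0.62). Without control replicate 2, the CX-5461 10 min value was -0.70, short of the limit of 1. NAIP had 5.35 and 6.31 CPM in the control and 3.07 and 2.50 CPM in CX-5461 10 min (log2 fold change -1.06, SE 0.21, adjusted p = 0.0182). NAIP has near-identical copies in the genome, so its assigned reads are uncertain. With the length offset its value was -0.72 (adjusted p = 0.0858), and without control replicate 2 it was -0.94, both short of the limit of 1.

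In the death receptor list, 8 of 8 genes were tested and none was called under both limits in any comparison. With the adjusted p alone, which 4.77% of all genes passed in CX-5461 10 min, FADD, the adaptor of death receptors, and CFLAR, an inhibitor of caspase 8, were lower there. FADD had 76.9 and 61.0 CPM in the control and 48.5 and 46.2 CPM in CX-5461 10 min (log2 fold change -0.54, adjusted p = 0.0151). CFLAR had 53.7 and 56.6 CPM in the control and 44.5 and 42.2 CPM in CX-5461 10 min (-0.35, adjusted p = 0.0237). In both genes, the CX-5461 10 min libraries lay below the other 12. This was not particular to them. Other genes of the lists did so too, among them CASP2 (61.6 and 61.8 CPM against 62.3 to 113). Some lay above all 12, among them BNIP3 (128 and 130 CPM against 101 to 124). Of the 24 alternatives, CFLAR against the control missed the adjusted p in 11, among them the correction for GC content and length, and ranged from -0.46 to -0.09 (highest adjusted p = 0.649), and FADD missed it in 6. FADD and CFLAR, like MCL1, were higher in RBI2 than in CX-5461 at this label (0.58, adjusted p = 0.0132, and 0.44, adjusted p = 0.00847). They were named after their values were seen.

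**Figure D5:**
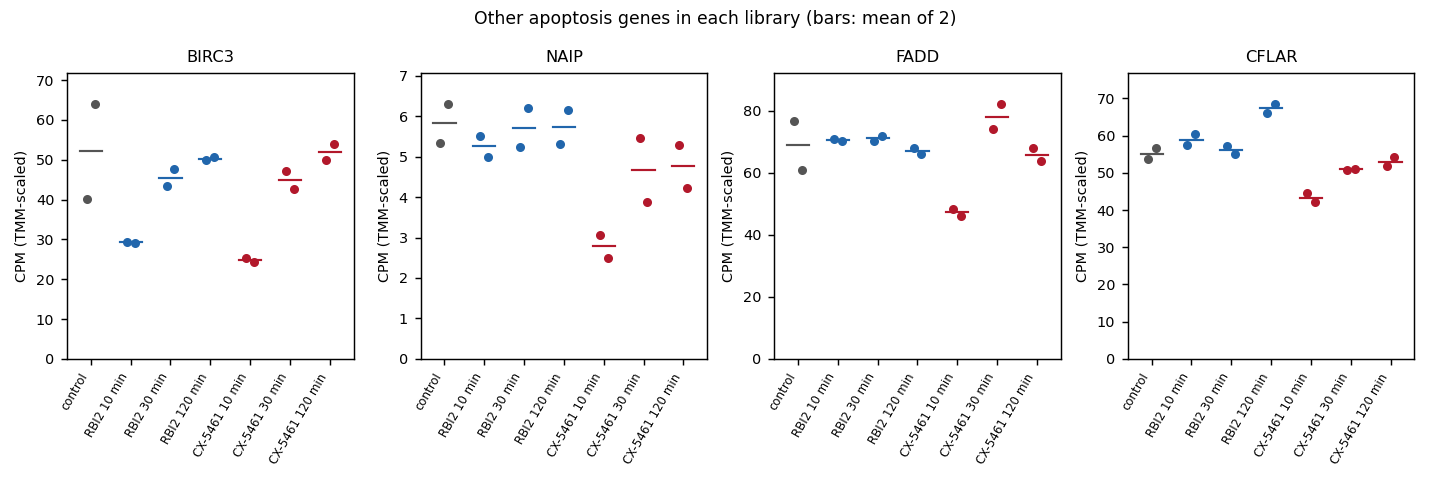
Level of BIRC3, NAIP, FADD and CFLAR in every library, in CPM with TMM scaling on linear axes that start at 0, by group. Points are the 2 replicates of a group and bars their mean. The CX-5461 10 min libraries are the lowest of the 14 in each panel, while BIRC3 is also low in RBI2 10 min, at 29.3 and 29.2 CPM.

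The remaining lists held no called gene. Of the other BCL2 family genes 10 of 15 were tested, of the apoptosome and caspases 9 of 9, and of the genes of MCL1 protein turnover 6 of 6. In CX-5461 10 min, none of the first 2 of these lists passed the adjusted p, and of the third FBXW7, a ubiquitin ligase subunit, did (log2 fold change -0.65, adjusted p = 0.0441). FBXW7 missed the adjusted p in 12 of the 24 alternatives, the replicate block and the length offset included (highest adjusted p = 0.336). In RBI2 120 min, where 18.0% of all genes passed the adjusted p, 2 of 10 other BCL2 family genes (BNIP3L, -0.45, and BNIP3, -0.20), 1 of 7 inhibitors of apoptosis (BIRC2, -0.53), 2 of 8 death receptor genes (FAS, -0.70, and CFLAR, 0.29) and 1 of 6 turnover genes (HUWE1, 0.74) passed it. Of these, FAS missed the adjusted p in 20 of the 24 alternatives, BNIP3 in 19, CFLAR in 8 (lowest log2 fold change 0.02), BNIP3L in 6 and BIRC2 in 4. HUWE1 missed it in 11 with its sign kept. It missed it in 1 more, the offset for transcript length, where it turned to -0.12 (adjusted p = 0.813). The 2 most abundant genes of each list without a called gene were BNIP3 and BAD, CYCS and CASP2, TNFRSF10B and TNFRSF1A, and CDC20 and HUWE1. Their log2 fold changes in CX-5461 10 min lay between -0.57 (CASP2, adjusted p = 0.102) and 0.58 (BAD, adjusted p = 0.247), and none passed the adjusted p there.

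By Pearson's r of log2 CPM over the 14 libraries, among 10620 genes with a mean of at least 5 CPM, the 5 genes most like MCL1 were GRPEL2 (r = 0.985), ARRDC3 (0.984), RND3 (0.981), C2orf69 (0.969) and UGCG (0.968). By Spearman's rho they were E2F7 (0.978), DCP2 (0.974), ZNF772 (0.974), FEM1B (0.969) and SERTAD2 (0.965), and 0 of the 5 were shared. The points share libraries within groups and no p was computed. Of the other 9 genes, BCL2 had an r of 0.638 with MCL1, BAX one of -0.625 and BID one of -0.519.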

How the data were processed

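Poly(A) RNA of 14 libraries was sequenced by the authors, who took out reads of the rDNA repeat and assigned the rest to GRCh38 transcripts with Salmon 1.3.0, per the labels' processing notes, which also name STAR 2.7.6a, SAMtools 1.11, bedtools 2.29.2 and DESeq2 1.28.1. The deposited values are, per transcript, estimated counts, not normalized, and TPM, which corrects for length and library size, as the authors made them with Salmon. Groups follow the sample labels. Here, transcript identifiers were looked up in GENCODE release 44 (225662 of 228754; the 3092 others held 1.03% to 1.13% of reads), summed into genes and rounded to whole counts, and TPM was summed per gene. Counts were scaled by TMM, filtered with filterByExpr (minimum count 10), and tested by the quasi-likelihood test of edgeR 4.0.16 (limma 3.58.1, R 4.3.3) with 7 groups in one model of 14 libraries. P-values were adjusted by Benjamini-Hochberg over 15426 genes, and a call needed both an adjusted p below 0.05 and a log2 fold change of 1 or more in either direction. The 9 pairwise comparisons and 2 tests among labels were repeated with DESeq2 1.42.0, other scaling, filter, length, GC and replicate-block settings, and with each library left out. The genes, lists and tests were chosen with earlier results of these data known. Named genes are the 10, the called genes of 5 pathway lists (or 2 of the most abundant where none was called) and the 5 most like MCL1. Exceptions chosen after their values were seen are FADD, CFLAR, FBXW7, BNIP3L, BIRC2, FAS and USP9X. Common coefficient of variation was 12.3%. Promoters and protein sequences are not used here, and some list genes are not reported here.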

Additional observations from a re-analysis of the deposited data

Results flagged for a closer look

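Effects of the compounds differed between groups, by a test of the difference itself, in 14 results for 11 genes, with adjusted p under 0.05 over all genes. At the label 10 min, RBI2 and CX-5461 differed in MCL1 (log2 difference of RBI2 over CX-5461 0.91, adjusted p = 0.000505), CFLAR (0.44, adjusted p = 0.00847), FADD (0.58, adjusted p = 0.0132) and NAIP (0.92, adjusted p = 0.0464). For all 4, both libraries of RBI2 lay above both of CX-5461, as they did for 30.1% of all genes tested. At the label 120 min they differed in BIRC2 (-0.71, adjusted p = 0.00677), BNIP3 (-0.20, adjusted p = 0.0437), BNIP3L (-0.45, adjusted p = 0.0168), CFLAR (0.35, adjusted p = 0.0147), CYCS (-0.28, adjusted p = 0.0419), FAS (-0.67, adjusted p = 0.047) and USP9X (-0.85, adjusted p = 0.0257). Among the labels of CX-5461, the largest differences were 0.87 for MCL1 (adjusted p = 0.00201), 1.06 for BIRC3 (adjusted p = 0.0166) and 0.72 for FADD (adjusted p = 0.0111). Of these 14, only BIRC3 also reached the limit of 1 on the log2 scale. MCL1 passed in all 24 alternatives in both of its results. Of the 24, FAS lost significance in 21, BNIP3 in 20, CYCS in 17, NAIP in 15, CFLAR in 6 at 10 min and 7 at 120 min, BNIP3L in 6, FADD in 6 at 10 min and 3 among the labels of CX-5461, and BIRC2, USP9X and BIRC3 in 4 each. Groups of 2 libraries were too small for a test of single outlying samples. The time tags in the table names go against the labels of all 12 treated libraries, so the label that belongs to each difference rests on the labels alone.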

How the results depend on the processing

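MCL1 kept its direction under all 24 alternatives in CX-5461 10 min against the control (-1.03 to -0.73), and its adjusted p passed 0.05 in all but the model of only the 4 libraries (0.199). In the direct comparison at 10 min and among the labels of CX-5461 it passed in all 24 (highest adjusted p = 0.00839 and 0.0328). The count of the 10 genes called was 0 and became 1 with no limit on the fold change in CX-5461 10 min against the control, in RBI2 against CX-5461 at 10 min and among the labels of CX-5461 (MCL1 each time). It became 1 in CX-5461 30 min with an unadjusted p and with no filter on low counts, and in RBI2 30 min with an unadjusted p (BBC3 each time). Over libraries left out one at a time, it ranged from 0 to 1 in CX-5461 10 min, CX-5461 30 min and RBI2 30 min, reaching 1 without control replicate 1 (MCL1, BBC3 and BBC3). No other count moved.

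The log2 fold change changed sign under the GC content and length correction, alone and with the replicate block, for BAX in CX-5461 30 min (-0.02133 and -0.02159), MCL1 in RBI2 30 min (0.01053 and 0.01052), BCL2L1 in RBI2 30 min (-0.0131 and -0.01316) and RBI2 120 min (-0.06115 and -0.06098), and PMAIP1 in RBI2 120 min (0.0631 and 0.06288) and in RBI2 against CX-5461 at 120 min (0.04791 and 0.04822). With the length offset it did so for MCL1 in CX-5461 120 min (0.1254) and HUWE1 in RBI2 120 min (-0.1233). With 1 library left out, MCL1 in CX-5461 120 min ranged from -0.1549 to 0.09094, turning positive without control replicate 2 (0.09094) and without CX-5461 120 min replicate 1 (0.04645). MCL1 ranged from -0.1145 (without control replicate 1) to 0.1407 in RBI2 10 min, and from -0.01943 (without CX-5461 30 min replicate 2) to 0.1396 in RBI2 against CX-5461 at 30 min. Except for HUWE1, none of these had passed before. The cause was not tested. Of 1200 values for 50 single-gene results, 933 stayed the same, 219 lost significance, 30 gained it and 18 changed sign. BIRC3 in CX-5461 10 min lost significance in 2 alternatives, without CX-5461 10 min replicate 2 and in the model of 4 libraries, and NAIP in 6. The share of MCL1-202 was 51.6% by TPM.

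The replicate numbers did not pair the libraries (correlations of replicate differences -0.18 to 0.18 over 21 pairs of groups, 18 of them at or below 0.1). With the replicate block MCL1 was -0.89 in CX-5461 10 min (adjusted p = 0.00118), and the block changed none of the counts of called members. Without either control library, or with 1 library left in another group, the lone library is assumed to vary like the other groups. No limit of detection was computed. In BBC3, which had 10 to 53 reads in a library, differences of 1.05 and 1.01 did not pass.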
